A study of Arabidopsis thaliana with 6 samples.

Results

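The JAZ (jasmonate ZIM-domain) repressor genes JAZ1, JAZ2, JAZ3, JAZ5, JAZ6, JAZ7, JAZ8, JAZ9, JAZ10 and JAZ12 of Arabidopsis thaliana were followed in callus, 10 of the 36793 loci counted. They were taken by locus identifier, and 9 of them had enough reads to be tested, among 18364 genes tested in all. Leaves of wild-type Col-0 seedlings, 2 weeks old, had been cut and placed on callus-inducing medium, and bulk RNA-seq was made from callus of day 7 (7DAC) and day 12 (12DAC), with 3 libraries per day that the series calls biological replicates. No uncultured leaf and no jasmonate treatment was analysed here, so each value is relative to day 7 callus. The sources at hand do not state whether a library stands for its own plant or culture plate. The edgeR p-values set the difference between the days against the spread among libraries of the same day.

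JAZ proteins hold jasmonate responses in check. They bind transcription factors such as MYC2 and recruit the co-repressor TOPLESS, directly or through the adaptor NINJA, and when the bioactive hormone jasmonoyl-isoleucine is present the F-box receptor COI1 tags them for destruction. MYC factors in turn activate many JAZ genes, so that JAZ transcripts rise after wounding and jasmonate treatment and close a negative feedback loop. Leaf cutting, the step that starts explant culture, is a classical trigger of this pathway.

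The bases upstream of the annotated gene starts are shown first, because MYC factors bind the G-box CACGTG and related hexamers and because members with different behaviour can be set side by side. The windows hold the 300 bases before each start in the RefSeq annotation of TAIR10.1, read on the strand of the gene from the genome of the same assembly. Capitals mark the G-box CACGTG, its variant AACGTG and the E-box CACATG, each searched on both strands and none overlapping another in these windows. JAZ5, JAZ8 and JAZ10 are the members that fell between the days, JAZ6 is the closest relative of JAZ5, and JAZ3 is a member without a detected change.
JAZ5: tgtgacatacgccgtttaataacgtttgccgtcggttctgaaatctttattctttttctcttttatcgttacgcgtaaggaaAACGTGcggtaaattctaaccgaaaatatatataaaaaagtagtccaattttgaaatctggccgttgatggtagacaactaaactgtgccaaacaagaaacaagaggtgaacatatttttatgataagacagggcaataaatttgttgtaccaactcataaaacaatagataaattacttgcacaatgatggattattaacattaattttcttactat
JAZ6: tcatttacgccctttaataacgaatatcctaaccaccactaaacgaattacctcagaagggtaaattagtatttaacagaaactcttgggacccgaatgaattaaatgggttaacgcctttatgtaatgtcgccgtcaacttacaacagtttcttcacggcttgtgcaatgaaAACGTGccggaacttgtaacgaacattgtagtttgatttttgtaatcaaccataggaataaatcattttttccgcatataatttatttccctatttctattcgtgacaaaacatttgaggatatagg
JAZ8: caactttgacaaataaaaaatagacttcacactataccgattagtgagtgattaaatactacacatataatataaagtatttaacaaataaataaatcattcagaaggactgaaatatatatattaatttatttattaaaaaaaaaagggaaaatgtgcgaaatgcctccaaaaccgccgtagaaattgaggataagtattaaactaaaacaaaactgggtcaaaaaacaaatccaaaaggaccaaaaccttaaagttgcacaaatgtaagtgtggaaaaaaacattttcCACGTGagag
JAZ10: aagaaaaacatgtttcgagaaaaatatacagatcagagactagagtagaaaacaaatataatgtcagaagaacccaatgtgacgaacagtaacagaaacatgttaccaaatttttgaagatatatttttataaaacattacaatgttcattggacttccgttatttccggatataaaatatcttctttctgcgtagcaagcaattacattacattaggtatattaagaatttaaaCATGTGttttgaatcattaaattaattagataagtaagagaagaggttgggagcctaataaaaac
JAZ3: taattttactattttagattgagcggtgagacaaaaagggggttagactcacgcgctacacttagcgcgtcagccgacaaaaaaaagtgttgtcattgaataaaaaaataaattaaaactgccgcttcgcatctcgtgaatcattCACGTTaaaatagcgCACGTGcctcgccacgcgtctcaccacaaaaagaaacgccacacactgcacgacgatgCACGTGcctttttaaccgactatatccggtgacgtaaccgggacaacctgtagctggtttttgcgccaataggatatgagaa
These windows lie at chr1:5957512-5957811 (minus strand) for JAZ5, chr1:27276563-27276862 (minus strand) for JAZ6, chr1:10596052-10596351 (plus strand) for JAZ8, chr5:4218486-4218785 (plus strand) for JAZ10 and chr3:6119407-6119706 (plus strand) for JAZ3. The G-box was found in 4 of the 10 members (JAZ2, JAZ3, JAZ7 and JAZ8), against 7.06% of the 27568 windows of protein-coding nuclear genes. The AACGTG variant was found in 4 members (JAZ3, JAZ5, JAZ6 and JAZ12), against 8.69%, and the E-box variant in 2 (JAZ9 and JAZ10), against 13.02%. The GCC-box GCCGCC, which ethylene response factors bind, was in 0 of the 10 and in 2.27% of all windows. JAZ5 and JAZ6 both carried 1 copy of AACGTG, first base at -218 and -127 from the gene start, and JAZ3 carried 2 G-boxes. The window of JAZ1, not printed here, held none of these hexamers. Some members that fell and some without a detected change thus both held them.

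JAZ10 (AT5G13220), JAZ5 (AT1G17380) and JAZ8 (AT1G30135) fell from day 7 to day 12, by 2.85-fold to 3.21-fold in the fit. None of the 9 tested members was called higher. The JAZ8 call rested on few counts and was lost in several alternative fits. With edgeR's quasi-likelihood test and Benjamini-Hochberg adjustment over all genes, 3 of the 9 tested members (33.3%) were lower, where 12.5% of all genes tested were lower, and 0 were higher, where 12.7% of all genes were (25.1% in either direction). At an unadjusted p of 0.05, 0 members were higher, and DESeq2 and limma on TPM also called 0 higher. The fall exceeded 1 log2 unit in all 3, which held for 2.02% of genes tested. In CPM, the libraries of the days did not overlap for 5 of the 9 members (55.6%), all lower on day 12, against 22.5% of genes tested. Day 12 lay wholly higher in CPM for 0 members, against 21.2% of genes. The count of 5 depended on the scale. TPM values were used as deposited, with no scaling between libraries, whereas CPM were TMM-scaled. The gap of JAZ2 was very small in CPM, and in TPM the days overlapped for JAZ2, JAZ8 and JAZ9. JAZ5 and JAZ10 did not overlap on either scale. The median log2 change was -0.50 over the 9 members and -0.0015 over all genes. In bulk tissue, fewer cells that express a gene and less RNA per cell cannot be told apart.

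**Figure D1:**
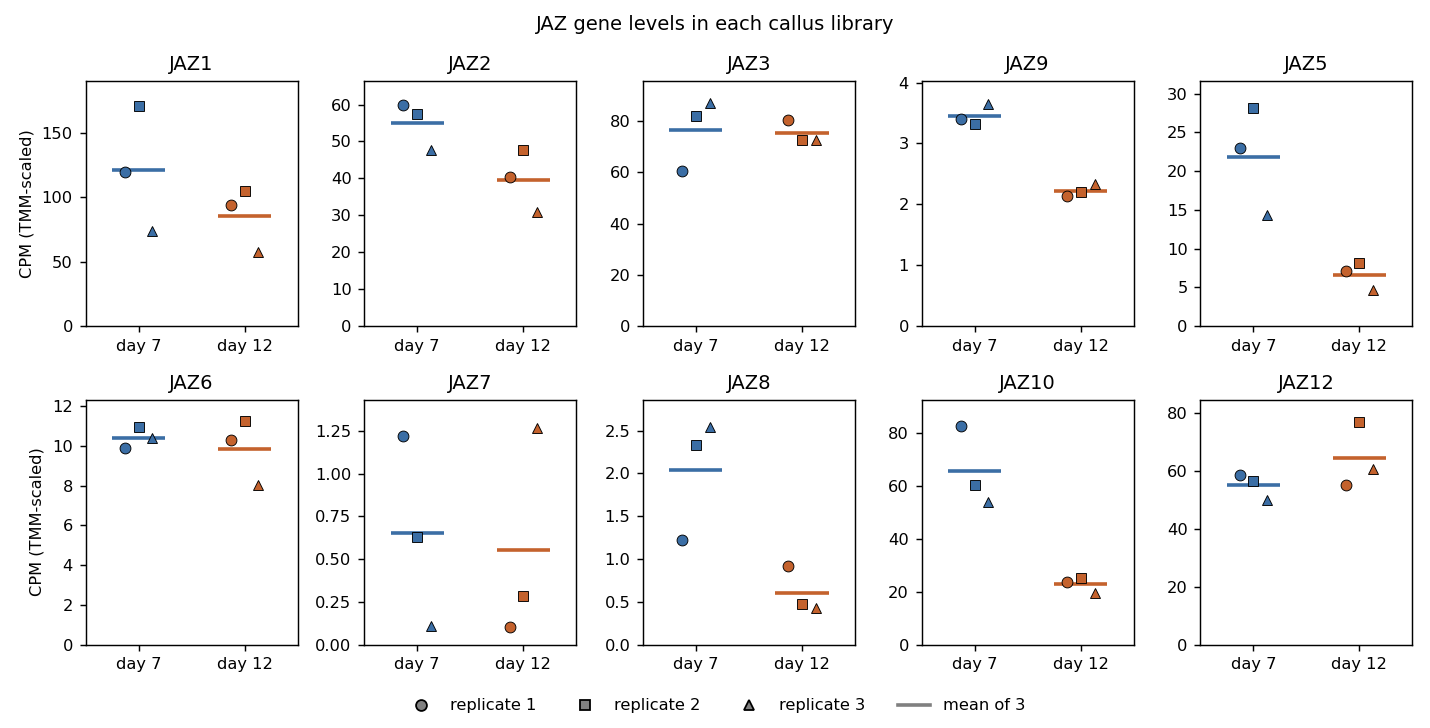
CPM (counts normalised to library size, scaled by TMM factors, vertical axes from 0 and different for each gene) of the 10 JAZ genes in each library, with symbols for the replicate number and a line at the mean of 3 libraries. In CPM, JAZ5, JAZ8 and JAZ10 lie lower in every day 12 library than in any day 7 library, while JAZ3, JAZ6 and JAZ12 overlap between the days. For JAZ8 this does not hold in TPM.

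JAZ10 encodes a repressor known for splice forms that resist COI1-dependent destruction and for damping jasmonate responses after wounding. Its level, in CPM (counts per library, scaled to the same total), was 82.6, 60.4 and 53.9 in replicates 1, 2 and 3 of day 7 and 23.7, 25.03 and 19.5 in those of day 12; later values follow the same replicate order. All day 12 libraries lay close together, below the lowest day 7 library. The mean went from 65.6 ± 15.03 to 22.7 ± 2.89 CPM (SD, n = 3 per day), a log2 change of -1.51 ± 0.17 (SE, adjusted p = 0.00185), or 2.85-fold lower. The call held in each of the 15 alternatives run. Counts are per locus, so the splice forms are summed here, and an antisense locus that overlaps JAZ10 had 0 counts in each library.

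JAZ5, whose protein carries an EAR motif that can recruit TOPLESS directly, stood at 23.0, 28.1 and 14.3 CPM on day 7 and at 7.04, 8.12 and 4.66 CPM on day 12. In both days replicate 2 was the highest library and replicate 3 the lowest, and the days did not overlap. The log2 change was -1.68 ± 0.29 (adjusted p = 0.00582), or 3.21-fold lower, and this call too held in each of the 15 alternatives. JAZ8, which lacks the usual degron and is therefore stable in the presence of the hormone, was scarce, with 9, 26 and 23 counts on day 7 and 9, 5 and 2 on day 12. That is 1.22, 2.33 and 2.55 CPM against 0.918, 0.478 and 0.423 CPM, with day 7 replicate 1 close to day 12 replicate 1. Its log2 change of -1.68 ± 0.50 had an adjusted p of 0.0373, which was 0.0605 with the replicate block and 0.0810 by DESeq2. The adjusted p was 0.0517 without the count filter and 0.0616 by limma on log2(TPM + 0.1). Leaving out day 7 replicate 2 (adjusted p = 0.115) or 3 (0.121) ended the call, as did leaving out day 12 replicate 1 (0.0540), 2 (0.115) or 3 (0.0859), while it held when day 7 replicate 1 was left out (0.0461).

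JAZ1 (AT1G19180) and JAZ2 (AT1G74950), a closely related pair with the canonical degron that were among the first JAZ proteins tied to COI1, had lower means on day 12 but did not pass the test without the replicate block. JAZ1 stood at 119.8, 171 and 74.1 CPM on day 7 and at 93.8, 105 and 57.6 CPM on day 12. The days overlapped, and within each day replicate 2 was highest and replicate 3 lowest, and the day 12 library was the lower one at each replicate number. The log2 change was -0.50 ± 0.36 (adjusted p = 0.368), and it was -0.48 with an adjusted p of 0.0109 once replicate numbers entered the fit as a block. When day 7 replicate 2 was left out, the unblocked change was -0.17 (adjusted p = 0.749).
JAZ2 stood at 60.0, 57.4 and 47.7 CPM on day 7 and at 40.3, 47.7 and 30.9 CPM on day 12, the lowest day 7 and the highest day 12 library being almost equal. Its log2 change was -0.46 ± 0.16 (adjusted p = 0.0648, and 0.0137 with the replicate block). It passed with upper-quartile factors (adjusted p = 0.0448) and without day 12 replicate 2 (0.0229). With the block 4 of the 9 members (44.4%) were lower, JAZ1, JAZ2, JAZ5 and JAZ10, against 13.8% of all genes in that fit, and 0 were higher, against 14.4%.

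JAZ3 (AT3G17860), JAZ6 (AT1G72450) and JAZ12 (AT5G20900) showed no detected change. JAZ3, known from the dominant jasmonate-insensitive mutant jai3, stood at 60.4, 82.2 and 87.2 CPM on day 7 and at 80.3, 72.7 and 72.6 CPM on day 12 (log2 change -0.03 ± 0.14, adjusted p = 0.901). JAZ6, the nearest relative of JAZ5, stood at 9.93, 10.96 and 10.4 CPM and then at 10.3, 11.3 and 8.05 CPM (-0.06 ± 0.18, adjusted p = 0.823). The days overlapped for both genes.
JAZ12, whose protein is stabilised by the ubiquitin ligase KEG, stood at 58.8, 56.7 and 49.9 CPM on day 7 and at 55.4, 77.2 and 60.8 CPM on day 12 (0.23 ± 0.13, adjusted p = 0.243). It was the only tested member with a change above 0 in the edgeR fit (on the TPM scales JAZ3 and JAZ6 were above 0 as well), and day 12 replicate 2 was its highest library. JAZ9 (AT1G70700), which also binds DELLA growth repressors, had 3.40, 3.32 and 3.65 CPM on day 7 and 2.14, 2.20 and 2.33 CPM on day 12. These groups did not overlap and were tight in CPM. In TPM the days overlapped, as day 7 replicate 1 (2.12) lay below day 12 replicate 1 (2.58). The rRNA loci held 30.7% and 12.6% of the TPM of these libraries, and their part in the overlap was not tested. The counts were low, and the log2 change of -0.64 ± 0.30 did not pass (adjusted p = 0.143).

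JAZ7 (AT2G34600), a relative of JAZ8, had 9, 7 and 1 counts on day 7 and 1, 3 and 6 on day 12, too few to test. Its highest libraries were day 7 replicate 1 and day 12 replicate 3, at 1.22 and 1.27 CPM, where 3 counts stand for 0.269 to 0.635 CPM in a library. Of the family's loci outside the 10, JAZ11 stood at 19.2, 17.1 and 18.9 CPM on day 7 and 12.96, 20.3 and 20.1 CPM on day 12 (log2 change -0.05 ± 0.18, adjusted p = 0.859). JAZ4 had 3, 7 and 2 counts and then 13, 5 and 8, and AT3G22275, annotated as a jasmonate ZIM-domain protein, had at most 2 counts in a library. Neither was tested.

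Levels of different members were compared by TPM, which corrects for transcript length, as each locus's share of the summed TPM of the 13 JAZ-type loci in the same library. The share does not depend on the rRNA loci, which held from 1.67% to 30.7% of the TPM of a library. On day 7 the order of the 10 members was JAZ1 (27.6 ± 7.27%), JAZ12 (17.0 ± 1.56%), JAZ10 (14.7 ± 3.12%), JAZ2 (14.0 ± 1.12%) and JAZ3 (13.8 ± 4.15%), followed by JAZ5 (4.10 ± 0.83%), JAZ6 (2.06 ± 0.35%), JAZ8 (0.840 ± 0.576%), JAZ9 (0.748 ± 0.223%) and JAZ7 (0.234 ± 0.158%). JAZ11, outside the 10, held 4.72 ± 0.946% on day 7 and 5.83 ± 1.60% on day 12, where it exceeded JAZ10 in replicate 3 (7.56% against 6.44%). JAZ1 exceeded JAZ12 in every day 7 library, whereas neighbours in the run of JAZ12, JAZ10, JAZ2 and JAZ3 changed places between libraries, as did JAZ8 and JAZ9. JAZ5 exceeded JAZ6, and JAZ6 exceeded JAZ8, in all 3.

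On day 12 JAZ12 (25.8 ± 3.01%) and JAZ1 (25.3 ± 4.61%) led and JAZ3 followed (17.8 ± 2.79%), with JAZ1 changing places with both between libraries. JAZ10 stood below JAZ2 in every day 12 library, at 6.68 ± 0.316% against 12.8 ± 1.01%. JAZ5 was below JAZ6 in every library, at 1.67 ± 0.278% against 2.49 ± 0.125%. The shares of JAZ5 and JAZ10 did not overlap between the days and were lower on day 12, and that of JAZ12 did not overlap and was higher, from 15.3% to 18.3% on day 7 and from 22.4% to 28.2% on day 12. Outside the 10, the share of JAZ4 also did not overlap and was higher on day 12, at 0.125% to 0.562% after 0.0593% to 0.123%, on 2 to 13 counts a library. A share rises when other members fall, so that of JAZ12 does not show a rise of its transcript. The summed CPM of the 13 loci was 431 ± 64.1 on day 7 and 326 ± 45.3 on day 12 (SD, n = 3 per day), with overlap between the days, and it was lower on day 12 at each replicate number (440.1 and 328, 490.4 and 370.5, 363 and 279.9).

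**Figure D2:**
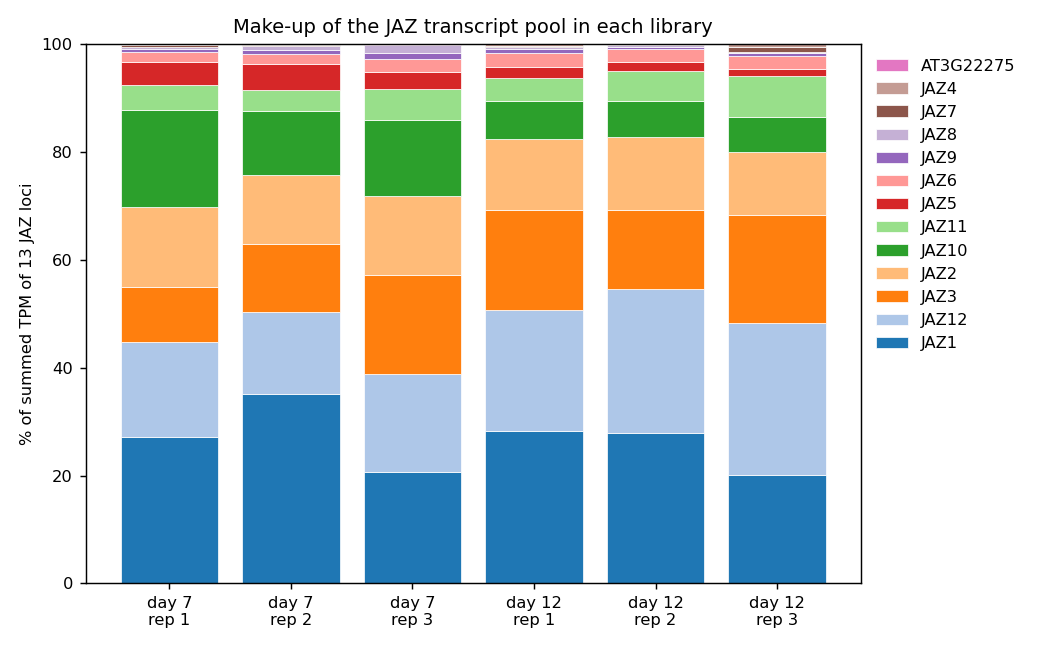
Stacked bars of the percentage that each of 13 JAZ-type loci held in their summed TPM in each of the 6 libraries. JAZ10 takes 12.0% to 18.1% of the pool on day 7 and 6.44% to 7.04% on day 12, and JAZ12 takes at most 18.3% on day 7 and at least 22.4% on day 12.

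Ratios between related members were formed within a library, where depth and scaling cancel, for the 4 pairs with at least 10 counts in every library. The TPM of JAZ5 was 2.39, 2.52 and 1.298 times that of JAZ6 on day 7 and 0.735, 0.701 and 0.571 times on day 12. JAZ5 thus led in each day 7 library and JAZ6 in each day 12 library. The log2 ratio moved by -1.58, from 0.987 ± 0.531 to -0.589 ± 0.195, with an exact two-sided permutation p of 0.1, the smallest that 3 against 3 libraries can give (0.2 adjusted over 4 pairs).
The JAZ3 to JAZ9 log2 ratio was higher by 0.67 on day 12, without overlap (exact permutation p = 0.1, adjusted 0.2). The JAZ12 to JAZ11 ratio differed by 0.31 (exact permutation p = 0.3, adjusted 0.4) and the JAZ1 to JAZ2 ratio by 0.02 (exact permutation p = 1.0, adjusted 1.0), both with overlapping days, although the JAZ12 to JAZ11 ratio was higher on day 12 at each replicate number. JAZ1 was 1.42 to 2.76 times as abundant as JAZ2 across all 6 libraries.

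**Figure D3:**
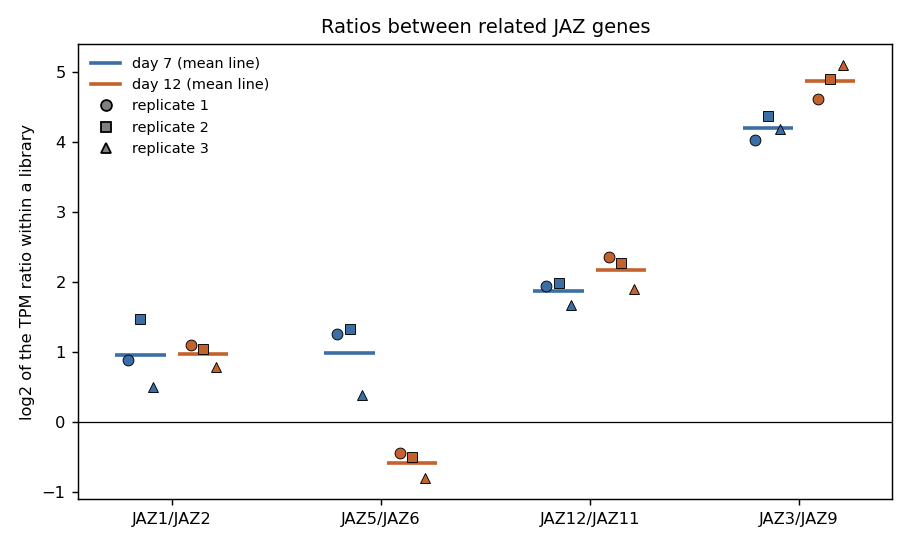
Log2 ratio of the TPM of 2 related JAZ genes within each library, with symbols for the replicate number and a line at the mean of 3 libraries per day. The JAZ5 to JAZ6 ratio is above 0 in all day 7 libraries and below 0 in all day 12 libraries, and the JAZ1 to JAZ2 ratio has nearly the same mean on both days.

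The pathway around the JAZ genes was read from 6 lists with 65 tested genes, of which 11 rose (16.9%, against 12.7% of all genes) and 5 fell (7.69%, against 12.5%). Both shares lay near those of all genes. With the replicate block 14 rose and 9 fell. Leaving out day 7 replicate 1 gave 4 higher and 3 lower, leaving out day 7 replicate 2 gave 5 and 3, and leaving out day 12 replicate 1 gave 7 and 3. With day 12 replicate 2 left out 8 fell.

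**Figure D4:**
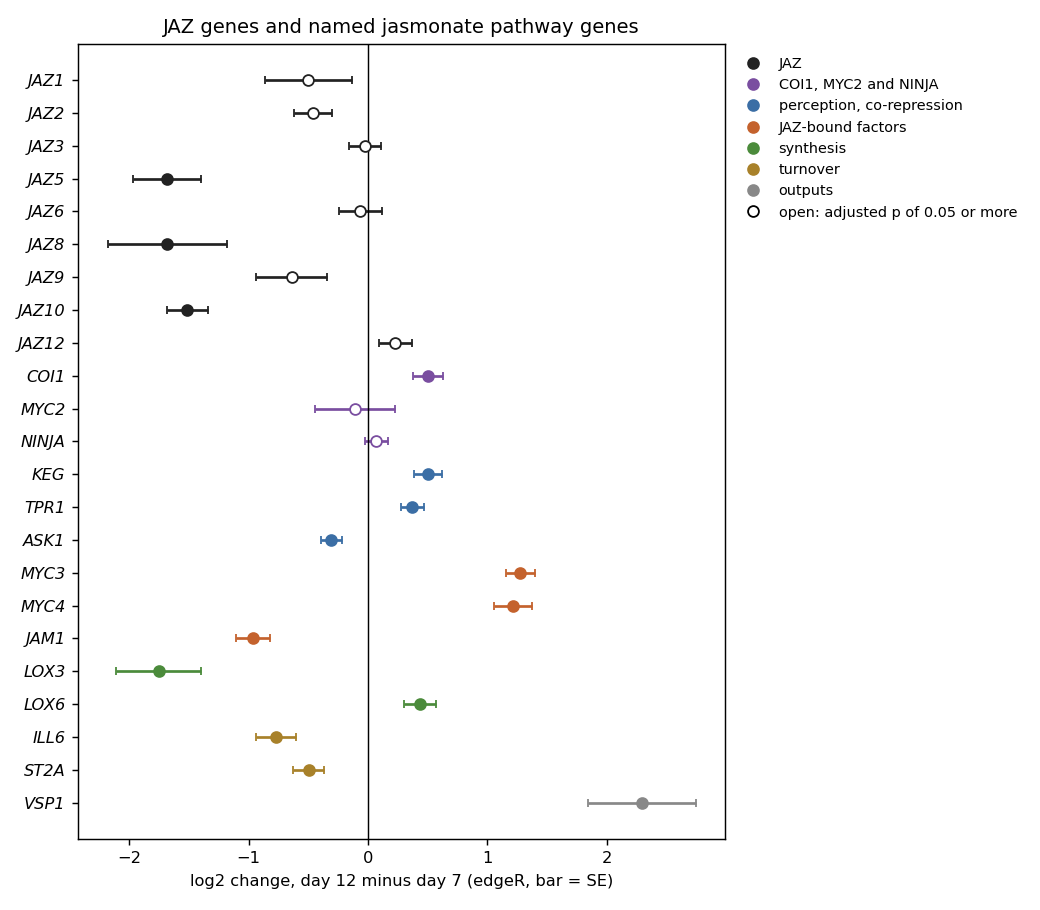
Log2 change from day 7 to day 12 with its standard error (edgeR) for the tested JAZ genes and the named genes of the jasmonate pathway, coloured by role, filled where the adjusted p was under 0.05. JAZ5, JAZ8, JAZ10 and LOX3 lie between -1.76 and -1.51, and MYC3, MYC4 and VSP1 lie at 1.21 or more.

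Among genes of perception and co-repression 4 of 10 tested rose, against 12.7% of all genes, and 1 fell, against 12.5%, with a median log2 change of 0.28. All of these calls ended, leaving 0 in either direction, when day 7 replicate 1 or day 7 replicate 2 was left out and on both TPM scales. COI1, the receptor subunit that binds JAZ proteins, stood at 35.0, 38.5 and 42.3 CPM on day 7 and at 54.8, 62.1 and 46.4 CPM on day 12, without overlap. Its log2 change was 0.50 ± 0.13 (adjusted p = 0.0217), and the call ended when day 7 replicate 1 (0.0891) or 2 (0.0656) or day 12 replicate 1 (0.0599) or 2 (0.0559) was left out. NINJA, the adaptor between JAZ proteins and TOPLESS, stood between 117 and 141 CPM in all 6 libraries (0.07 ± 0.10, adjusted p = 0.636).
KEG rose by 0.50 ± 0.12 (adjusted p = 0.0148) and the TOPLESS-related co-repressor gene TPR1 by 0.37 ± 0.10 (adjusted p = 0.0245), and ASK1, the adaptor that joins F-box proteins to the ligase core, fell by 0.31 ± 0.09 (adjusted p = 0.0330). The remaining called gene was TPL, which encodes TOPLESS (0.31, adjusted p = 0.0248), and its call was lost without day 7 replicate 1 (0.0626), 2 (0.114) or 3 (0.0545). The calls of KEG and TPR1 were lost without day 7 replicate 1 (0.0554 and 0.0784) or 2 (0.0532 and 0.0525). TPR1 also lost its call without day 7 replicate 3 (0.0887) or day 12 replicate 1 (0.0740) and with library sizes alone (0.0519). ASK1 lost its call without any single library other than day 12 replicate 2 (adjusted p from 0.0505 to 0.0904). On log2(TPM + 1) none of COI1, KEG, TPR1 and ASK1 passed (adjusted p from 0.128 to 0.652).

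Of the transcription factors that JAZ proteins bind, and their co-activator MED25, 4 of 15 tested genes rose (26.7%, against 12.7% of all genes) and 1 fell (6.67%, against 12.5%), with a median log2 change of 0.23. The 2 closest relatives of MYC2, which share its role in jasmonate responses, both rose. MYC3 stood at 51.4, 63.4 and 61.1 CPM on day 7 and at 150.2, 154 and 122 CPM on day 12 (1.27 ± 0.12, adjusted p = 0.00141). MYC4 stood at 11.02, 14.8 and 16.6 CPM and then at 30.6, 33.0 and 35.6 CPM (1.21 ± 0.16, adjusted p = 0.00238).
MYC2 itself stood at 53.5, 113 and 52.3 CPM on day 7 and at 79.7, 60.9 and 62.9 CPM on day 12 (-0.11 ± 0.33, adjusted p = 0.846), and without day 7 replicate 2 its change was 0.36 (adjusted p = 0.123). Its highest library, day 7 replicate 2, was also the highest for JAZ1 and JAZ5. JAM1, a bHLH factor that competes with MYC2 and dampens jasmonate responses, fell by 0.96 ± 0.14 (adjusted p = 0.00320), from 32.7 ± 3.99 to 16.7 ± 2.27 CPM. The calls of MYC3, MYC4 and JAM1 held in each of the 15 alternatives. The other called genes were EIN3 (0.60, adjusted p = 0.00433), called in each alternative too, and TOE1 (0.40, adjusted p = 0.0273), whose call was lost without day 7 replicate 1 (0.0822) or 2 (0.102) or day 12 replicate 1 (0.0758) or 3 (0.0567) and on log2(TPM + 1) (0.240). TT8, MYB24 and YAB1 had 0 counts in each library.

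Of 15 tested genes of jasmonate synthesis 1 rose and 1 fell (6.67% each, against 12.7% and 12.5% of all genes), with a median log2 change of -0.28. The count of lower genes was 5 with the replicate block, 4 without day 12 replicate 2, 3 without day 7 replicate 3 and 3 with upper-quartile factors, which called 0 higher. LOX3, a lipoxygenase that starts the pathway after wounding, stood at 7.62, 5.21 and 3.65 CPM on day 7 and at 1.53, 1.62 and 1.69 CPM on day 12 (-1.76 ± 0.36, adjusted p = 0.00919, and 0.162 on log2(TPM + 1)). LOX6, another lipoxygenase of this step, rose by 0.44 ± 0.13 (adjusted p = 0.0427). The LOX6 call was lost without any single library other than day 12 replicate 3 (adjusted p from 0.0886 to 0.127), and with upper-quartile factors (0.0519) or library sizes alone (0.0756).
The genes added by the block, outside the naming rule, were LOX2, AOS, AOC3 and OPCL1, with blocked adjusted p of 0.0169, 0.0281, 0.00143 and 0.0125. Without the block their adjusted p was 0.0892, 0.178, 0.0658 and 0.0565.

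Of 7 tested genes of jasmonate turnover 2 fell (28.6%, against 12.5% of all genes) and 0 rose, while the median log2 change was 0.83. This count depended on the method, since DESeq2 called 2 higher and 2 lower and limma on log2(TPM + 1) called 2 higher and 0 lower. The genes called higher there were CYP94B3 and CYP94C1, cytochromes P450 that oxidise jasmonoyl-isoleucine and lie outside the naming rule (DESeq2 log2 changes 1.43 and 1.13, adjusted p = 0.0461 and 0.0281; in edgeR 1.42 and 1.13, adjusted p = 0.0842 and 0.0543). The block called their relative CYP94B1 as higher (1.97, adjusted p = 0.0475). ILL6, an amidohydrolase that splits jasmonate conjugates, fell by 0.77 ± 0.17 (adjusted p = 0.0118, and 0.0644 on log2(TPM + 1)). ST2A, a sulfotransferase of hydroxyjasmonate, fell by 0.50 ± 0.13 (adjusted p = 0.0234), and its call ended when day 7 replicate 1 (0.0871) or 2 (0.0650) or day 12 replicate 1 (0.0767) was left out, and on log2(TPM + 1) (0.274).
Of 12 tested output genes 1 rose (8.33%, against 12.7% of all genes) and 0 fell, with a median of 0.43, and 3 rose on both TPM scales, VSP1, THI2.1 and PR3. VSP1, a vegetative storage protein gene classically induced by jasmonate, stood at 3.26, 5.93 and 1.33 CPM on day 7 and at 16.6, 22.0 and 13.8 CPM on day 12 (2.29 ± 0.45, adjusted p = 0.0121), the opposite direction to JAZ5 and JAZ10. Its call, the list's single one, was lost without day 7 replicate 1 (0.0608). The block added VSP2 and THI2.1 as higher (adjusted p = 0.00813 and 0.0302). The defensin genes PDF1.2 and PDF1.2b had 0 counts in each library. Among 6 other TIFY-domain genes 1 rose (16.7%, against 12.7% of all genes) and 0 fell, against 12.5%. The gene that rose was PPD2, which restrains division of leaf precursor cells (0.78 ± 0.13, adjusted p = 0.00494).

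Markers of the tissue moved between the days as well. Of all genes tested 12.5% were lower and 12.7% higher, or 13.8% and 14.4% with the replicate block. Each of the 9 callus and root meristem genes had counts in some library. WOX5, PLT1, PLT2, SCR and SHR stood at 17.4 CPM or more in every library. LBD17 (0 to 1.22 CPM) and LBD29 (0 to 3.26 CPM) were not tested. The summed level of the 9 genes was 493 to 588 CPM on day 7 and 448 to 557 CPM on day 12. Of 7 tested 2 fell (28.6%), SCR by 0.45 ± 0.11 (adjusted p = 0.0215) and LBD16 by 0.80 ± 0.22 (adjusted p = 0.0297). Of 5 leaf mesophyll genes 4 were tested and 4 fell (100%), 3 with the replicate block. LHCB2.1 (-2.48 ± 0.54), RBCS1A (-1.59 ± 0.33) and RCA (-1.08 ± 0.24) kept their calls with the block, and PSAN (-0.87, adjusted p = 0.0443) lost its call with it (0.0573), by DESeq2 (0.0894) and without any single library (0.0607 to 0.151). The list's summed level went from 64.7 to 111 CPM down to 30.3 to 40.4 CPM. Of 5 tested shoot epidermis genes 3 fell (60%), FDH (-1.13 ± 0.16), PDF2 (-0.77 ± 0.16) and PDF1 (-0.44 ± 0.13). The whole list summed to 394 to 717 CPM on day 7 and 224 to 315 CPM on day 12. This sum includes LTP1, which ranged from 57.2 to 390 CPM. LTP1 was not called in the main fit (-1.25, adjusted p = 0.138) but was by limma on log2(TPM + 1) (6.05e-05).
Of 3 tested phloem genes 1 fell (33.3%, against 12.5% of all genes), PP2-A1 (-2.45 ± 0.38). The list's sums were 30.9 to 72.9 CPM on day 7 and 15.03 to 30.5 CPM on day 12. No xylem gene was called of 3, whereas the block called all 3, CESA7 (0.72, adjusted p = 0.0118) and CESA4 (0.67, adjusted p = 0.0128) as higher and XCP1 (-0.89, adjusted p = 0.0235) as lower. DESeq2 also called CESA7 (0.0365). RBCS1A lost its call when day 12 replicate 2 was left out (adjusted p = 0.0640), RCA without day 7 replicate 2 (0.0565) or day 12 replicate 2 (0.0693) or 3 (0.0535), and SCR without day 7 replicate 1 (0.0606) or 3 (0.0751) or day 12 replicate 2 (0.0548). LBD16 kept its call only when day 7 replicate 2 was the library left out (0.0507 to 0.0934 otherwise), and PDF1 only for day 7 replicate 2 or day 12 replicate 3 (0.0968 to 0.131 otherwise). On log2(TPM + 1) the calls of SCR (0.419), LBD16 (0.0632), PDF1 (0.427) and PDF2 (0.125) were lost. The block added PLT1 as higher (0.0406) and ATML1 as lower (0.0215). No marker was at 0 counts over all libraries. The part of these cell types in the fall of JAZ5, JAZ8 and JAZ10 was not tested.

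The 5 genes whose log2 CPM most resembled the mean standardised profile of the 9 tested members over the 6 libraries were HMG2, ERF10, PPa1, EHB1 and RWA3, with Pearson correlations of 0.996, 0.995, 0.993, 0.984 and 0.982. These are the highest among all tested genes with a symbol, over 6 shared libraries of 2 days, and they are given as a description. In the same order, the edgeR log2 changes were -0.23, -1.42, -0.20, -1.58 and -0.13 (adjusted p = 0.127, 0.0517, 0.127, 0.0419 and 0.353). Only EHB1 was called, and its call was lost without any single library other than day 12 replicate 2. Among the members themselves JAZ5 (0.943) and JAZ2 (0.939) lay closest to the mean profile, and JAZ3 (0.142) and JAZ12 (-0.226) did not follow it. Each tested member is part of that mean, so its correlation is partly with itself.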

How the data were processed

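The deposited counts (whole numbers, not normalized) and the deposited TPM values covered 36793 loci in 6 libraries with 4927953 to 10746277 counts each. Day 12 replicate 3 had the fewest. Mitochondrial loci held 3.51% of its counts, against 0.112% to 1.16% in the other libraries. The build TAIR10, RSEM 1.3.1 and STAR 2.7.10a are named in the submitters' processing notes; no source at hand states the strand setting or how multi-mapping reads were treated, so reads in the stretches that antisense loci share with JAZ10 (71 bases) and JAZ12 (211 and 28 bases) may belong to either gene; those loci had 0, at most 2, and 65 to 185 counts a library. Counts were tested with edgeR 4.0.16 (R 4.3.3): filterByExpr, TMM factors (0.960 to 1.04), robust quasi-likelihood fit with day as the only term, Benjamini-Hochberg at 0.05. CPM are TMM-scaled, and the SE is the log2 change divided by the root of F. Alternatives included DESeq2 1.42.0 and limma 3.58.1. Limma was run on the deposited TPM with no scaling between libraries. As rRNA loci held from 1.67% to 30.7% of a library's TPM, calls lost on the TPM scales carry this limit. The procedure was tested on simulated data with the same dispersion for every gene and no effect shared by replicate number. That test therefore does not cover such effects in these libraries.

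The members and lists were chosen with earlier results of these data known; 119 of 130 list genes carried a matching RefSeq name (TAIR10.1). Named genes were the members, COI1, MYC2, NINJA, per list the first 3 called genes by adjusted p plus the first in the other direction (or the gene of lowest p), and 5 by likeness. Libraries of the same replicate number deviated together (across genes, r = 0.151, 0.156 and 0.244; the other pairs ranged from -0.162 to 0.00563), so a fit with the number as a block was set beside the main one; the labels do not say what a number marks.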

Additional observations from a re-analysis of the deposited data

How the results depend on the processing

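The direction of JAZ5, JAZ8 and JAZ10 was the same in the 15 alternatives, and 2 to 4 JAZ genes were lower in each, with 0 higher. Of the jasmonate pathway genes 5 were lower in the main fit, against 8 with upper-quartile factors, 3 on log2(TPM + 1) and 3 on log2(TPM + 0.1). With the replicate block 9 were lower; it also added JAZ1 and JAZ2 and removed JAZ8. Leaving out 1 library gave 4 to 13 pathway genes higher and 3 to 8 lower, against 11 and 5; fewer libraries entered those fits. Small changes crossed 0 without being called. JAZ3 was 0.12 on both TPM scales, and ranged from -0.17 to 0.072 when 1 library was left out. JAZ6 was 0.0092 on log2(TPM + 1), 0.010 on log2(TPM + 0.1) and ranged from -0.17 to 0.052 when 1 library was left out. JAZ11 was 0.012 on both TPM scales and from -0.18 to 0.15 with 1 library left out. MYC2 was 0.063 on log2(TPM + 1), 0.070 on log2(TPM + 0.1) and from -0.30 to 0.36 with 1 library left out. The cause was not tested. JAZ4, JAZ7 and AT3G22275 were limited by depth, at or near 3 counts in several libraries.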

Other observations

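ORA47 (AT1G74930), an early jasmonate and wound factor that activates jasmonate synthesis genes, was chosen after its values were seen. It had 4, 158 and 1 counts in day 7 replicates 1, 2 and 3 and 23, 7 and 0 in day 12 replicates 1, 2 and 3, or 14.2 CPM in day 7 replicate 2 and at most 2.35 CPM elsewhere. The same library held the highest values of JAZ1, JAZ5 and MYC2, but not for JAZ10, which was highest in day 7 replicate 1. LOX2 (AT3G45140), a plastid lipoxygenase gene also chosen after its values were seen, had 388, 170 and 70 counts on day 7 and 37, 0 and 5 on day 12.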
